A study of Homo sapiens with 5 samples.

Results

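Called start sites of nascent RNA were examined at 10 short non-coding RNA genes of RNA polymerase III (Pol III) in HUDEP-2 cells. They are RN7SK, RN7SL1, RN7SL2, RMRP, RPPH1, RNY1, RNY3, RNY4, VTRNA1-1 and VTRNA1-2, which is 10 of the 59098 RefSeq genes on chromosomes 1 to 22 and X. The genes were listed by name, with earlier results of these data known. Every called start site inside one of them or within 1 kb of it, on either strand, was counted, and there were 21 such calls of 28159 on these chromosomes. HUDEP-2 is an immortalised human erythroid progenitor line.

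The series holds 5 PRO-seq (precision run-on sequencing) libraries of HUDEP-2 cells. In this assay engaged polymerases extend their RNA in isolated nuclei with biotin-labelled nucleotides, here CTP and UTP, and RNA that carries the label is purified for sequencing. Wild-type cells gave 2 libraries. The other 3 libraries came from clones, each grown from a single cell after editing with sg1617, a guide against the enhancer of BCL11A, a repressor of fetal globin genes. Their genotypes were a 1 bp insertion, a 13 bp deletion and a 15 bp deletion, with 1 clone for each edit. The deposited start sites form 1 list per strand, with 14124 forward and 14159 reverse calls, from 1 alignment named for HUDEP-2 cells. Its name carries no edit and matches no library title, so the calls may describe 1 wild-type library and not all 5. They have no column per library, so edited and wild-type cells could not be compared, no value below has a replicate, and the depth is unknown. Among the cell type markers reported here, which are not the whole list, 7 of 7 erythroid genes (GATA1, KLF1, ALAS2, SLC4A1, RHAG, TFRC and HBB) had a start call, and 0 of 4 markers of other cells (CD3E, MPO, PF4 and ALB) did.

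Pol III transcribes short structured RNAs, among them transfer RNA, 5S ribosomal RNA and the genes studied here. RN7SK, RMRP, RPPH1 and the Y RNA genes are known for promoters that lie upstream of the start, with a TATA box and more distant activating elements bound by factors such as OCT1. The 7SL and vault RNA genes use elements inside the transcribed region as well. In the cell, 7SK RNA holds the elongation factor P-TEFb inactive, 7SL RNA is the core of the signal recognition particle, and RMRP and RPPH1 RNAs are the catalytic cores of RNase MRP and RNase P. Y RNAs bind the Ro60 and La proteins, and vault RNAs belong to the vault particle. PRO-seq labels the RNA of every engaged polymerase, and the lists do not record which polymerase made the RNA behind a call.

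RefSeq promoter windows of neighbouring genes reached the upstream side of 5 of the 10 genes. They are shown because they hold upstream intervals described below. A called base fell in the windows of RN7SK, RPPH1 and VTRNA1-1, and none in those of RMRP and RNY1. Each is written 5′ to 3′ on the strand of the Pol III gene, from RefSeq GRCh38.p14. Capitals mark a called base, on whichever strand the call lay, and matches to the letters TATAA (as in a TATA box) or to the octamer ATGCAAAT (an OCT1 site), each searched on both strands. The window between RN7SK and GSTA4 is chr6:52995284-52995534, forward strand, and ends 86 bp upstream of RN7SK. That between RMRP and CCDC107 is chr9:35658042-35658292, reverse strand, and ends 23 bp upstream of RMRP. That between RPPH1 and PARP2 is chr14:20343385-20343635, reverse strand, and runs 26 bp into RPPH1. That upstream of RNY1, from the promoter of GHET1, is chr7:148987277-148987576, reverse strand, and ends 29 bp upstream of RNY1. That of VTRNA1-1, from the promoter of LOC105378198, is chr5:140711026-140711325, forward strand, and runs 49 bp into VTRNA1-1 beyond its first base.
RN7SK upstream: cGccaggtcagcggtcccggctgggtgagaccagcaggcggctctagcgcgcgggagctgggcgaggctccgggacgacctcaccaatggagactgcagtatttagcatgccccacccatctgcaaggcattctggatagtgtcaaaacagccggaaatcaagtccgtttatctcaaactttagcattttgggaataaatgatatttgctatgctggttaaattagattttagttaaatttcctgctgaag
RMRP upstream: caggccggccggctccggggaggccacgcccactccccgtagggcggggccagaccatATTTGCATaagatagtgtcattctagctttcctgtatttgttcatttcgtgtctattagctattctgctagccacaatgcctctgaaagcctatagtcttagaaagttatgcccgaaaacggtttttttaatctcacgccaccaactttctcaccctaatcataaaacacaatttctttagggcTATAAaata
RPPH1 upstream: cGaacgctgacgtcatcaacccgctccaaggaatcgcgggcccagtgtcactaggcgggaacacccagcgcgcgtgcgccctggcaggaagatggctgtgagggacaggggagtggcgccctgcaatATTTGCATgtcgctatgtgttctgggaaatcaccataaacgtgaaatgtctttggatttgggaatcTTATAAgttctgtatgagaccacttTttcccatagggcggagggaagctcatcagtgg
RNY1 upstream: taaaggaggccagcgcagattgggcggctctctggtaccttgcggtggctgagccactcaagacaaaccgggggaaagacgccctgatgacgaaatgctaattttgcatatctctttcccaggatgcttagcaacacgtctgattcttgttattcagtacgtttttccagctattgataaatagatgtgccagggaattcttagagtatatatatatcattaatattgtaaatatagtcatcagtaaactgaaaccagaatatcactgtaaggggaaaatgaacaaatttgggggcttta
VTRNA1-1 upstream: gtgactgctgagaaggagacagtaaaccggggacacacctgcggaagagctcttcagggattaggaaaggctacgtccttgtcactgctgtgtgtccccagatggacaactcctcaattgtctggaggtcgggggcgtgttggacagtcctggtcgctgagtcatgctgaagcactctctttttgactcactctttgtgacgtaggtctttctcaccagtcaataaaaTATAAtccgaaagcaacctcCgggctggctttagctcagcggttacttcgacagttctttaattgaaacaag

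A gene was taken to have a start call when a call lay within 500 bp of its annotated start on its own strand. Of the 10 Pol III genes 9 had one, and VTRNA1-2 did not. The gene tables give no strand for these 10 genes, so either end could count, and the end with the nearer call was taken as the start. By the same rule 18.9% of all RefSeq genes had a start call. With strand used where it is known, 18.6% of all genes and 41.6% of protein-coding genes had one. Of 8884 genes of at most 350 bp with no strand given, 8.15% did, and of transfer RNA genes, which Pol III also transcribes, 60.7% did. The share in the Pol III list was 90% (Wilson 95% confidence interval 59.6 to 98.2%, counting error only). A call anywhere in the gene or within 1 kb, on either strand, was found for the same 9 genes, against 25.6% of all genes and 9.33% of the short genes. All 9 start calls lay within 25 bp of an annotated end, against 62.2% of the start calls of all genes, so windows of 50, 100 and 1000 bp gave 9 genes as well. The shares of all genes in these windows at either end were 14.3%, 15.9% and 20.5%.

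**Figure D1:**
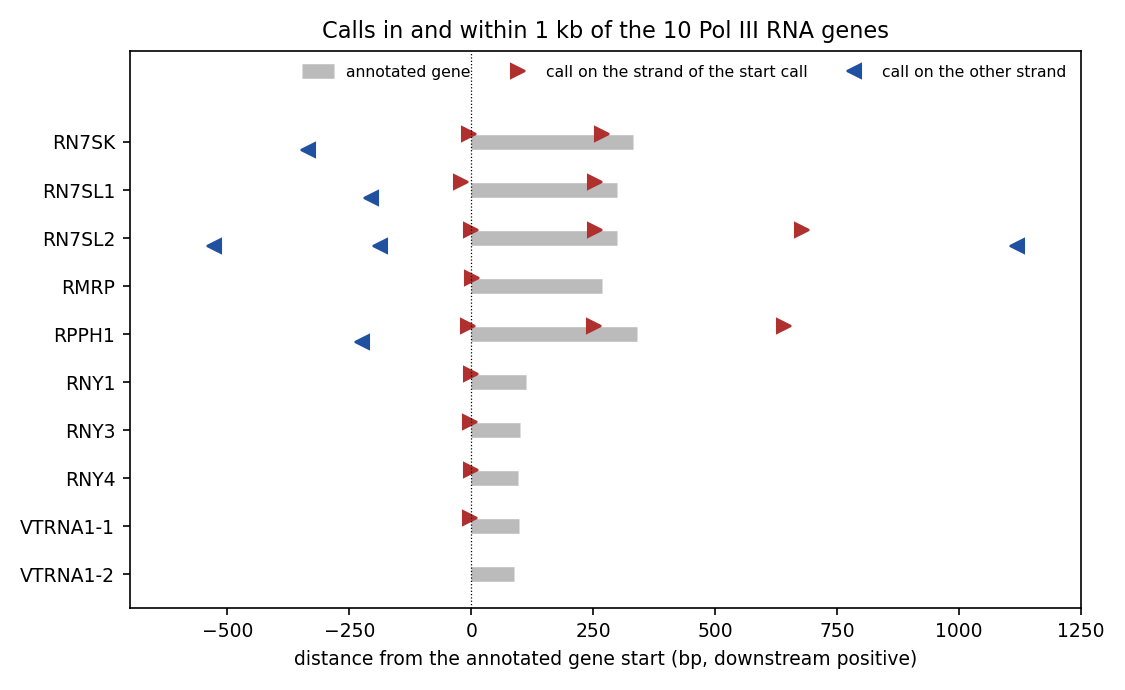
Calls in and within 1 kb of the 10 Pol III genes, by distance from the annotated start in bp, with each gene as a grey bar. Red arrowheads are calls on the strand of the start call and blue arrowheads calls on the other strand; VTRNA1-2 has no call, and its bar is drawn from its left end. RN7SK, RN7SL1, RN7SL2 and RPPH1 have further calls on both strands, whereas the other 5 called genes have 1 call each.

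RN7SK, the 7SK gene (gene ID 125050, chromosome 6, 52995620 to 52995951, 332 bp), had 3 calls. The forward start call at 52995615 lay 5 bp upstream of the annotated start. A second forward call at 52995888 lay 268 bp downstream of the start, inside the gene and 63 bp before its end. The remaining call, at 52995285 on the reverse strand, lay 330 bp upstream of the start call. It is at the start of GSTA4, a glutathione transferase gene read in the other direction, with an offset of -1 bp from that gene's annotated start. The starts of RN7SK and GSTA4 are 336 bp apart, so both sides of this interval held a call at an annotated start. In the part of the interval shown above, neither TATAA nor the octamer was found; the last 85 bp before RN7SK were not in the window.

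RN7SL1 and RN7SL2 encode 7SL RNA, and each is 299 bp long. RN7SL1 (gene ID 6029, chromosome 14, 49586580 to 49586878) had its start call at 49586559, 21 bp upstream of the annotated start on the forward strand. This was the start call farthest from its annotated start among the 9. A reverse call at 49586375 lay 184 bp upstream of it. RN7SL1 lies inside RPS29, a ribosomal protein gene read on the reverse strand, whose own start call was 49598730, with an offset of -20 bp; the start of RPS29 is 12130 bp from that of RN7SL1. The reverse call therefore fell inside RPS29 and not at its start.

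RN7SL2 (gene ID 378706, chromosome 14, 49862551 to 49862849) held the most calls of the 10 genes, 3 on each strand. Its start call at 49862850 lay on the reverse strand, 1 bp upstream of the annotated start. Forward calls at 49863036 and 49863376 lay 186 and 526 bp upstream of it. The first of these is also within 500 bp of the left end of the gene, so both ends of RN7SL2 met the 500 bp rule. Past the other end of the gene there were a reverse call at 49862170, 679 bp from the start, and a forward call at 49861729, 1120 bp from the start. RN7SL2 lies inside the lncRNA LOC105378179, whose start is 5321 bp away and has its own start call.

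Inside the genes, RN7SL1 and RN7SL2 carried their second call at the same place. The call at 49586834 in RN7SL1 and the call at 49862595 in RN7SL2 each lay 254 bp downstream of the annotated start and 44 bp before the end. The 7SL genes are nearly identical, together with RN7SL3, so they are not single copies in sequence. The calls inside them are therefore uncertain, and how reads were placed among them was not tested. RN7SL3, on the same chromosome (49853616 to 49853914), had a reverse start call at 49853916, with an offset of -2 bp, and no call inside the gene.

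RMRP, the RNA of RNase MRP (gene ID 6023, chromosome 9, 35657750 to 35658019, 270 bp), had 1 call. It lay at 35658018 on the reverse strand, 1 bp downstream of the annotated start. CCDC107, a protein-coding gene read in the other direction, starts 273 bp away and had no start call. The nearest other call of either strand was 7178 bp away. In the window shown, TATAA began 31 bp upstream of RMRP and ended 27 bp upstream, on the strand of RMRP. The octamer lay 215 to 208 bp upstream, on the opposite strand.

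RPPH1, the RNA of RNase P (gene ID 85495, chromosome 14, 20343071 to 20343411, 341 bp), had 4 calls. The reverse start call at 20343417 lay 6 bp upstream of the annotated start. A second reverse call at 20343159 lay 252 bp downstream, inside the gene and 88 bp before its end, and another at 20342769 lay 642 bp downstream, past its end. The forward call at 20343634 lay 217 bp upstream of the start call. It is at the start of PARP2, a DNA repair enzyme gene, with an offset of -1 bp. The starts of RPPH1 and PARP2 are 224 bp apart, and both calls stand in capitals in the sequence above. In the same interval TATAA lay 30 to 26 bp upstream of RPPH1 on its own strand, overlapping a match on the other strand at 31 to 27 bp, and the octamer lay 97 to 90 bp upstream on the opposite strand.

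RMRP and RPPH1 thus both had TATAA on their own strand and the octamer on the opposite strand. The octamer lay closer to RPPH1, which also had TATAA on the opposite strand. At the other end of the interval, PARP2 had a start call and CCDC107 had none. In 34789 RefSeq promoter windows of 300 bp, TATAA occurred on either strand in 20.5% and the octamer in 1.77%. TATAA began more than 20 and at most 35 bp upstream of the annotated start, on the gene's strand, in 3.7%. The windows shown for RMRP and RPPH1 were 251 bp long and lay differently around the start. The shares of 20.5% and 1.77% are therefore not matched to them in length or position. Matches of either motif are letters in a window and do not show that a factor was bound.

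RNY1, RNY3 and RNY4, the listed Y RNA genes, each had 1 call, at or next to the annotated start. RNY1 (gene ID 6084, chromosome 7, 148987136 to 148987248, 113 bp) was called at 148987248 on the reverse strand, with an offset of 0 bp. RNY3 (gene ID 6085, 148983755 to 148983856, 102 bp) was called at 148983753 on the forward strand, 2 bp upstream of its start. RNY4 (gene ID 6086, 148963315 to 148963410, 96 bp) was called at 148963315 on the forward strand, with an offset of 0 bp. GHET1, a lncRNA gene read away from RNY1, starts 279 bp from it and had no start call.

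The other gene of the cluster, RNY5 (148941488 to 148941571), was called at 148941487 on the forward strand, with an offset of -1 bp, and had a reverse call 242 bp upstream of that. Over the 45761 bp from RNY5 to RNY1 and 1 kb on either side there were 5 calls, and 0 of them lay more than 1 kb from a Y RNA gene. The nearest call to RNY4 was 20438 bp away, and RNY1 and RNY3 were each other's nearest, 3495 bp apart. In the window upstream of RNY1 neither motif was found; the last 28 bp before the gene were not in it.

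VTRNA1-1, a vault RNA gene (gene ID 56664, chromosome 5, 140711276 to 140711373, 98 bp), had 1 call, at 140711274 on the forward strand, 2 bp upstream of its start. The lncRNA LOC105378198 is annotated to start at the same base, so the call cannot be given to one of the genes. Without VTRNA1-1, 8 of 9 genes had a start call. In the window shown, TATAA lay 22 to 18 bp upstream.

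VTRNA1-2 (gene ID 56663, chromosome 5, 140718926 to 140719013, 88 bp) had 0 calls on either strand in the gene or within 1 kb, and the nearest call was 7145 bp away. The last gene of the cluster, VTRNA1-3 (140726159 to 140726246), had a forward start call at 140726158, with an offset of -1 bp. These were the only calls over the 14971 bp of the cluster and 1 kb on either side, 2 in all. Because the read minimum and the depth are unknown, the missing call does not show that VTRNA1-2 was silent.

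Across the 9 called genes, 5 start calls were forward and 4 were reverse. Offsets ran from -21 to 1 bp, with a median of -2 bp, where negative values are upstream. The call was upstream of the annotated start in 6 genes, at it in RNY1 and RNY4, and downstream in RMRP. RN7SL2, RNY1 and RNY4 had offsets of -1, 0 and 0 bp, so a shift of 1 base in reading positions would change this split. In 7 of the 9 the offset was at most 5 bp either way (77.8%), against 38.3% of all genes with a start call and 42.2% of protein-coding genes with one. Where the strand is not given, the nearer of both ends is used, which can only make an offset smaller. Over all 11001 genes with a start call the median offset was 3 bp, with quartiles at -1 and 30 bp, and the commonest offset was -1 bp, in 15.2% of genes.

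**Figure D2:**
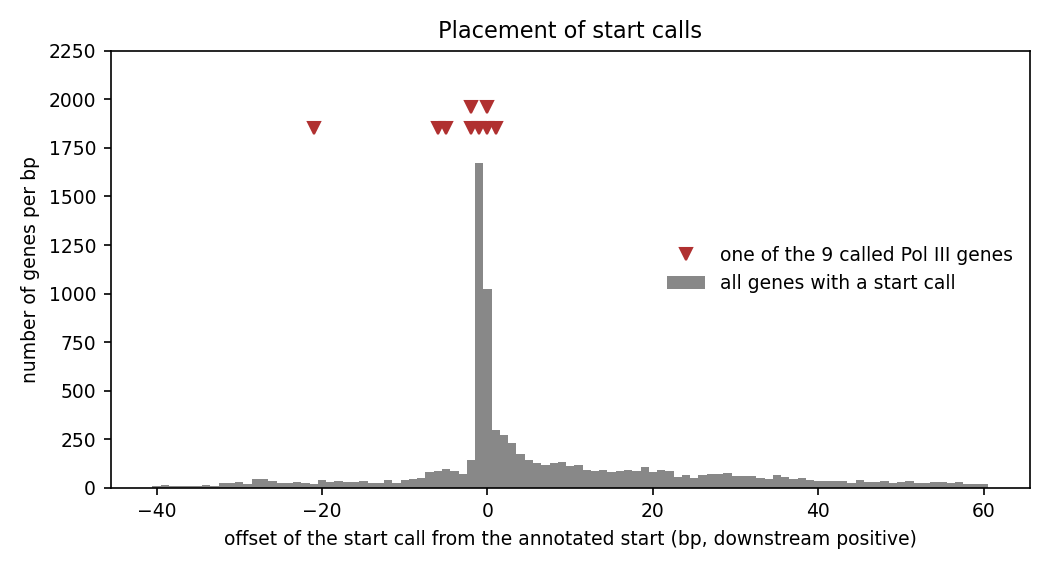
Number of genes per bp of offset between the start call and the annotated start, in bp, for all genes with a start call (grey, shown from -40 to 60 bp), with a red triangle at the offset of each of the 9 called Pol III genes. The triangles lie between -21 and 1 bp, whereas the grey bars have a tail on the downstream side.

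The base at the calls was read from the RefSeq promoter windows to see how exact such offsets are. Start sites of RNA commonly have a pyrimidine followed by a purine, which is the first base of the RNA. Of 5808 forward calls inside the windows, 32.8% had such a purine at the called base and 43.4% at the next base downstream. Of 5718 reverse calls the shares were 31.8% and 44.7%. The pattern was thus commoner 1 base downstream of the listed position than at it, on both strands. Reading the start column in place of the end column moves forward calls upstream and reverse calls downstream. With each call moved 1 base downstream, chosen after these shares were seen, the median offset of the 9 genes was -1 bp. At single calls, the called base of VTRNA1-1 was C and that of RPPH1 was T. Differences of 1 or 2 bp between genes are therefore not read as differences in start site.

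The called genes differed in what lay upstream. A call on the other strand within 1000 bp upstream was found for RN7SK, RN7SL1, RN7SL2 and RPPH1, at 330, 184, 186 and 217 bp. RMRP, RNY1, RNY3, RNY4 and VTRNA1-1 had none. The share was thus 4 of 9 (44.4%), against 64.7% of the start calls of all genes and 66.2% of those of protein-coding genes. The count was 4 with windows of 500 and 2000 bp as well. At RN7SK and RPPH1 the upstream call was the start of a protein-coding gene, and at RN7SL1 and RN7SL2 it was not within 1 kb of another gene's annotated start. Of the 9 start calls 3, those of RMRP, RNY4 and VTRNA1-1, had no other call of either strand within 5 kb, against 20% of the start calls of all genes.

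The same 4 genes had further calls on their own strand. The gap from the start call to the next was 273 bp in RN7SK, 275 bp in RN7SL1, 255 bp in RN7SL2 and 258 bp in RPPH1, and all 4 of these calls lay inside the gene. A call within 300 bp downstream on the same strand was thus found for 4 of 9 genes (44.4%), against 2.86% of the start calls of all genes and 2.59% of those of protein-coding genes. RN7SL1 and RN7SL2 are nearly identical, so their inner calls may not be separate observations. Merging of calls within 500 bp removes all 4 inner calls, since their gaps are shorter than that. RN7SL2 and RPPH1 each had another call, 425 and 390 bp after the inner one and past the end of the gene. Only 2 of 28113 gaps between neighbouring calls of a strand were shorter than 250 bp, and 760 were 250 to 280 bp. The 4 first gaps lie in that range, so their length may not give the distance between start sites. The Y and vault RNA genes are 88 to 113 bp long, below the shortest gap in the lists (206 bp), so they are too short to hold 2 calls at any gap found in the lists. RMRP, at 270 bp, is close to these gaps and had 1 call. Whether the inner and later calls mark starts of RNA or 5′ ends of RNA fragments was not tested. Nor was it tested whether the start calls of the 9 genes mark starts of nascent RNA or 5′ ends of RNA already made.

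**Figure D3:**
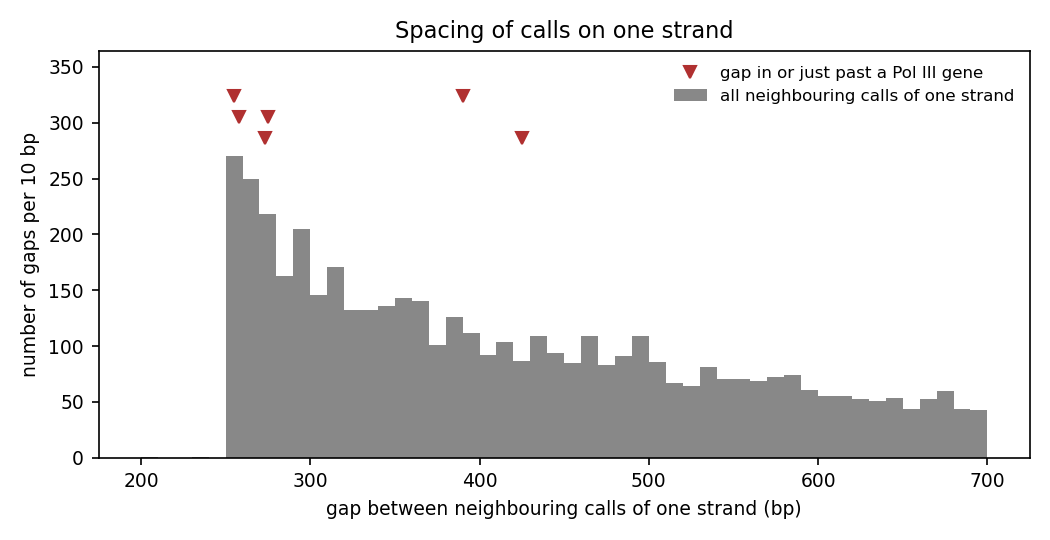
Number of gaps between neighbouring calls of one strand, per 10 bp of gap length in bp, over all calls on chromosomes 1 to 22 and X (grey), with a red triangle for each of the 6 gaps in or just past a Pol III gene. The first gaps of RN7SK, RN7SL1, RN7SL2 and RPPH1 (255 to 275 bp) lie at the short end of the grey distribution, and the later gaps of RN7SL2 and RPPH1 are 425 and 390 bp.

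Other Pol III genes were called less evenly. Of 11 further genes outside the 5S ribosomal RNA array, 8 had a call within 500 bp, but only 5 of them within 100 bp. These were RNY5, VTRNA1-3, VTRNA2-1, RN7SL3 and RNU6-2, with offsets between -5 and -1 bp. BCYRN1, RNU6ATAC and RNU6-7 had none. RNU6-1, RNU6-8 and RNU6-9, copies of the U6 small nuclear RNA gene of 107 bp, had this call outside the gene. If the gene lies on the strand of the call, it was 326, 328 and 296 bp beyond the end. No strand is given for these copies, and on the other strand the call would lie upstream of the gene. RNU6-1 also had a reverse call at 67840707, farther than 500 bp from either end. RNU6-2, another copy, was called at its start. Of the 17 listed 5S genes of chromosome 1, RNA5S9 had a start call (offset -1 bp) and 16 had none. U6 and 5S genes are near-identical copies, so the calls at single copies are uncertain. How reads were placed among them was not tested.

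Pseudogene copies of these RNA families rarely had calls. The Y RNA copies were searched for RNY5 as well, which is not among the 10 genes. Of 1051 copies in RefSeq 7 had a start call within 500 bp (0.666%, interval 0.323 to 1.37%), against 1.21% of all pseudogenes. By family these were 2 of 292 copies of 7SK, 4 of 681 of 7SL, 1 of 75 of Y RNA, and 0 of 3 of RMRP and RPPH1. Only the call at RN7SL832P, at -10 bp, lay within 100 bp of a copy's end, and that of RN7SL521P lay 51 bp from the start of ZNF425. How reads that fit both a copy and its parent gene were placed was not tested.

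**Figure D4:**
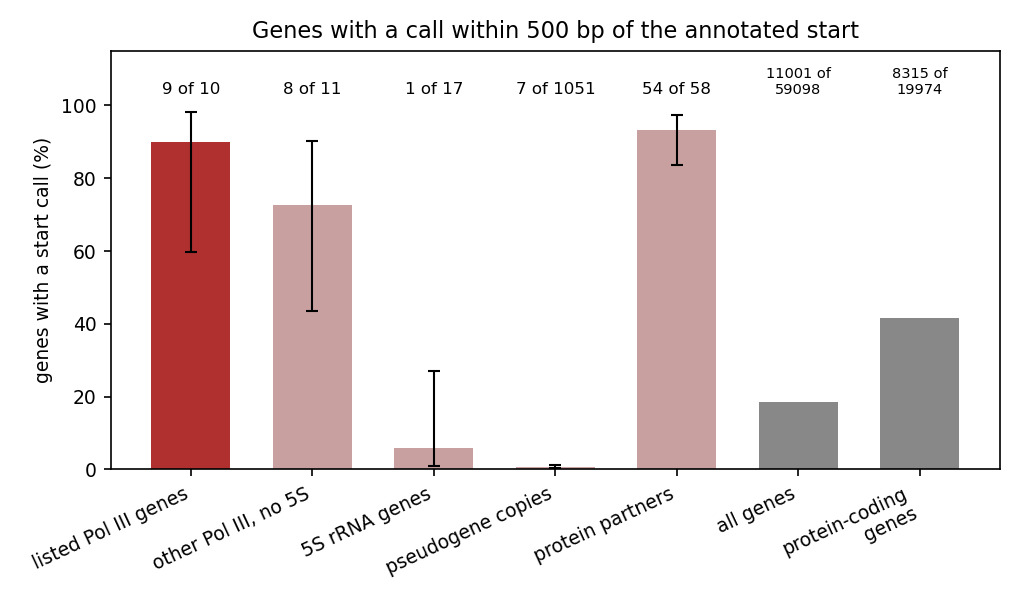
Share of genes with a start call within 500 bp, in percent, with the number of genes above each bar. Red is the 10 Pol III genes, pale the other Pol III genes, pseudogene copies and protein partners, and grey all and protein-coding RefSeq genes. Error bars on the red and pale bars are Wilson 95% intervals of counting error only, and the grey bars have none. The Pol III list (90%) and its protein partners (93.1%) are the highest, and pseudogene copies (0.666%) the lowest.

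The proteins that make or bind these RNAs were nearly all called. Of 58 protein-coding genes 54 had a start call (93.1%), against 41.6% of all protein-coding genes. Among the subunits of Pol III 12 of 13 were called, including POLR3A and POLR3B, the subunits that form the catalytic centre, at offsets of 1 and 57 bp. POLR3G, which has the paralogue POLR3GL, was not called, while POLR3GL was called at 0 bp. Among initiation factors and the repressor MAF1 18 of 19 were called, all but BRF1, a TFIIIB subunit for genes with internal promoters. BRF2, its counterpart at upstream promoters, was called at 0 bp, as were SNAPC1 and SNAPC4 of the SNAPc complex that binds such promoters. SNAPC2, SNAPC3 and SNAPC5 were called at 3, -34 and -1 bp. GTF3A, GTF3C1, GTF3C2, GTF3C3, GTF3C4, GTF3C5 and GTF3C6, factors for internal promoters, were also called, at 0 to 41 bp. Factors for both kinds of promoter were thus called.

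The RNA-binding partners were called in most groups as well. All 6 proteins of the signal recognition particle, SRP9, SRP14, SRP19, SRP54, SRP68 and SRP72, were called, as were all 11 of RNase P and MRP and both RO60 and SSB, which encode Ro60 and La. Of the 7SK partners HEXIM1, LARP7 and MEPCE were called at 2, 30 and 0 bp, and HEXIM2 was not. Of the vault proteins PARP4 and TEP1 were called at 0 and -1 bp. MVP, which encodes the major vault protein that makes up most of the particle, had 0 calls in the gene or within 1 kb on either strand. POLR3G, BRF1 and HEXIM2, by contrast, had 3, 3 and 2 calls in the gene or near it. Of the parts of the vault particle examined, MVP and VTRNA1-2 were therefore the ones without a start call.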

How the data were processed

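PRO-seq libraries of HUDEP-2 cells were processed on genome build hg38 with BWA 0.7.16a, SAMtools 1.17, Picard and deepTools 3.5.4, per the submitters' processing notes. Start sites were called with TSScall on 1 sorted, de-duplicated alignment, per the file headers; neither its version nor its read minimum is known here. The authors deposited a score column that is 0 in all 28283 calls, so calls were not ranked. The end coordinate of each call, 1 base long, was taken as its 1-based position. Gene positions came from RefSeq GRCh38.p14, which shares primary coordinates with hg38; strand was known for 27195 of 59098 genes, from the promoter table, and for 0 of the 10 Pol III genes. Elsewhere either end could count.

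Wilson 95% intervals, which cover counting error only, were computed for the shares of the gene lists with a start call. The other shares, including those of paired and further calls and of all genes, have no interval. No test between groups was run, since the lists have no replicates. Members, lists and windows were chosen with earlier results of these data known. All 10 genes, neighbours with an end near a call, and called members of the lists were named, with partner genes lacking a call; further partner genes were named for their roles, after their values were seen. Some cell type markers are not reported here, so the marker counts cover only part of the list. The method was tested on simulated data, where offsets, pairs and further calls of 200 of 200 genes were recovered. These genes all had a known strand and no other gene end within 5 kb of their start. The rule for genes without a strand, used for all 10 Pol III genes, was therefore not tested, nor were close neighbours. Alternative windows of 50, 100 and 1000 bp, pair distances of 500 and 2000 bp, merging of calls within 500 bp and other position readings were tried. Software was Python 3.11.15 with scipy 1.17.1, pandas 2.3.3, matplotlib 3.10.9 and numpy 2.4.6.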

Additional observations from a re-analysis of the deposited data

How the results depend on the processing

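The count of called Pol III genes was 9 of 10 with windows of 50, 100 and 1000 bp and after merging calls within 500 bp. Of 29 alternatives, 25 left a count within 1.5 times its value or a median where it was, and 4 did not. The number of pseudogene copies with a start call fell from 7 to 1 with windows of 50 and 100 bp. The median offset of the called genes was -3 bp with the start column as the position and -1 bp with every call moved 1 base downstream, the second being a choice made after seeing the data, as was leaving out VTRNA1-1. Merging calls within 500 bp left 14 of the 21 calls in and near the genes, and 2000 bp in place of 1000 bp added 0. The number of reads behind a call is unknown, so a missing call has no detection limit. No paired analysis was possible because the lists have no column per library, and leaving out a library was not possible for the same reason.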
